A study of Mus musculus with 6 samples.

Results

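The genes described here are 10 genes of neutrophil granules and myeloid enzymes, namely Mpo, Elane, Prtn3, Ctsg, S100a8, S100a9, Ngp, Ltf, Camp and Lcn2. They were the rows of the count table whose Ensembl identifier carried one of these symbols in the GRCm38 annotation, and all 10 were found among 16312 genes. The identifiers were ENSMUSG00000009350 for Mpo, ENSMUSG00000020125 for Elane, ENSMUSG00000057729 for Prtn3, ENSMUSG00000040314 for Ctsg, ENSMUSG00000056054 for S100a8, ENSMUSG00000056071 for S100a9, ENSMUSG00000032484 for Ngp, ENSMUSG00000032496 for Ltf, ENSMUSG00000038357 for Camp and ENSMUSG00000026822 for Lcn2. The RNA came from haematopoietic stem cells (HSCs), the cells that found all blood lineages, taken from bone marrow of male mice by flow sorting. The young group held 3 controls labelled Young B6 control, aged 8 to 12 weeks, and the old group 3 controls labelled Old B6 control, aged 22 months. The series title names the C57BL/6N strain, all 6 libraries come from a parabiosis experiment in which these mice were the controls, and no allele or agent is named. The comparison asks how the transcripts of these cells change with age.

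Neutrophils store antimicrobial proteins in granules that form in sequence as the cell matures. Primary (azurophil) granules form at the promyelocyte stage and hold myeloperoxidase (Mpo) with the serine proteases neutrophil elastase (Elane), proteinase 3 (Prtn3) and cathepsin G (Ctsg). Secondary (specific) granules form later and hold lactoferrin (Ltf), the cathelicidin precursor (Camp), neutrophilic granule protein (Ngp) and lipocalin 2 (Lcn2), while S100a8 and S100a9, the subunits of calprotectin, fill the cytosol of maturing neutrophils. The transcription factors PU.1 (gene Spi1), C/EBP and Myb are known to act on promoters of such genes. Stem cells are generally regarded as low in transcripts of mature granules.

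Upstream sequence of 7 members is shown first. AGGAAGT lay before the RefSeq start of all 4 primary granule genes, and TTGCNNAA before that of 4 of the 6 later genes. RefSeq (GRCm38.p6) gave a promoter window for 10 of 10 members, and the 250 bases before the start were searched on both strands for AGGAAGT, a core of PU.1 sites, for TTGCNNAA, a core of C/EBP sites, for AACNG, a core of Myb sites, and for TATAAA. The letters were chosen with the sequences in view. Starts are those of RefSeq and can differ from the annotation that gave the gene positions. The RefSeq start of Prtn3 lay 5.19 kb inside its annotated gene. The whole 250-base window of Lcn2 lay inside its annotated gene, behind the start of a coding transcript, so Lcn2 is not printed. In Lcn2 an AACNG match overlapped the TTGCNNAA match, and no such overlap lay in the stretches printed. AGGAAGT was found in 4 of 4 primary granule genes, in S100a8 and in 7.69% of the 32851 promoters of the RefSeq table. It began 223 bases before the start in Mpo, 84 in Elane, 94 in Prtn3 and 206 in Ctsg. The capitals mark it in the following stretches, which lie at chr11:87793534-87793580 (plus strand), chr10:79886062-79886246 (plus), chr10:79879417-79879613 (plus) and chr14:56102575-56102824 (minus) and stop before the earliest coding transcript of the annotation.
Mpo: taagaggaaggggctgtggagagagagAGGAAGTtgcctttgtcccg
Elane: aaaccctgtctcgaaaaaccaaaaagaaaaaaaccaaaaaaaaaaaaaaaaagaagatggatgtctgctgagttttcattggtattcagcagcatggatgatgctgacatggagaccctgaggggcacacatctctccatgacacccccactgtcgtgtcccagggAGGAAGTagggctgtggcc
Prtn3: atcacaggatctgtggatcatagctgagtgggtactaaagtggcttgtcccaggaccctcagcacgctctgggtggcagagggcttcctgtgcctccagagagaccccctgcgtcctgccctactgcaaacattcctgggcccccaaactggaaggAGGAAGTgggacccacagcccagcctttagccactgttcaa
Ctsg: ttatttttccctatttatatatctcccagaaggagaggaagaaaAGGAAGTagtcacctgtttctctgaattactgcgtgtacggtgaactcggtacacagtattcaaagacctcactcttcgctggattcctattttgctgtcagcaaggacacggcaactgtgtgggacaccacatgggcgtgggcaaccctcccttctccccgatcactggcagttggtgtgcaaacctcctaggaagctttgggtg

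TTGCNNAA was found in 4 of 6 later genes, S100a9, Ngp, Ltf and Lcn2, in 9.56% of all promoters and in no primary granule gene. S100a8 and Camp did not hold it. S100a9, Ngp and Ltf are shown with the motif in capitals, at chr3:90695722-90695971 (minus), chr9:110419558-110419746 (plus) and chr9:111019042-111019270 (plus).
S100a9: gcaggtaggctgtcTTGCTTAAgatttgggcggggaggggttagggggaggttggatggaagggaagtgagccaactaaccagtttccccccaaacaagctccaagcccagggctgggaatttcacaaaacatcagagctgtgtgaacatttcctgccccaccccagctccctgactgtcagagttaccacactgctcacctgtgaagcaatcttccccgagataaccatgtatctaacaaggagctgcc
Ngp: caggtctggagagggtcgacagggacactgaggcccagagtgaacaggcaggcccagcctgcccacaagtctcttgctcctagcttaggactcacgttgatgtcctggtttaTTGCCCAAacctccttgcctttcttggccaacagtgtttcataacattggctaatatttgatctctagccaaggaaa
Ltf: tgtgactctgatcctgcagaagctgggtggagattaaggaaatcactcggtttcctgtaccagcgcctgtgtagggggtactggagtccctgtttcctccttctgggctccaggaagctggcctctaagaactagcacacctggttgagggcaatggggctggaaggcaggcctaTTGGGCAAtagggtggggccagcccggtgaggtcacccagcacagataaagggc
AACNG was present in all 10 windows and in 74.2% of promoters, and TATAAA in Ctsg and S100a8 and in 12.4%. A match is a description of letters and says nothing of binding in these cells. Prtn3 and Mpo, which changed in opposite directions between the ages, both held AGGAAGT.

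In HSCs of old mice Prtn3 rose 3.15-fold, while Mpo and the later genes S100a8, S100a9 and Ngp fell 9.10-fold to 33.0-fold. The level of 9 of the 10 genes was highest in young replicate 1 (young 1, and likewise for the other libraries), where 20.5% of all tested genes had their highest level. Prtn3 was the exception, at a level in young 1 between those of young 2 and young 3. Levels are CPM, counts relative to the library size scaled by edgeR's TMM factors, and libraries held 12494557 to 30931680 counts. Of the 10 members 6 had enough counts to be tested (Mpo, Prtn3, S100a8, S100a9, Ngp and Lcn2), and Elane, Ctsg, Ltf and Camp fell below the filter on low counts. Each change is old over young, with its standard error (SE) and the adjusted p-value of edgeR's quasi-likelihood test over all 14288 genes tested, with a threshold of 0.05.

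Of the 6 tested members 4 were called lower in old mice, against 1.54% of all tested genes, and 1 was called higher, against 2.45%. In the fit of all 16312 genes without a filter 3 of the 10 members were called lower, against 1.05%, and 1 higher, against 1.92%, and the call of Mpo was lost (adjusted p = 0.0603). Ngp and Lcn2 reached the filter's 0.437 CPM in the 3 young and only 1 of the old libraries, so these counts describe the members and do not support a shift of the list. Groups did not overlap for Mpo, S100a9, Ngp and Camp, all lower in old mice, as for 10.8% of tested genes, and for Prtn3, higher in old mice, as for 11.6%. Fewer cells of a type in a sample and less RNA per cell cannot be told apart in these bulk libraries. The labels do not say whether the libraries of a group came from separate mice, so p-values measure the spread between these samples, which may be technical.

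**Figure D1:**
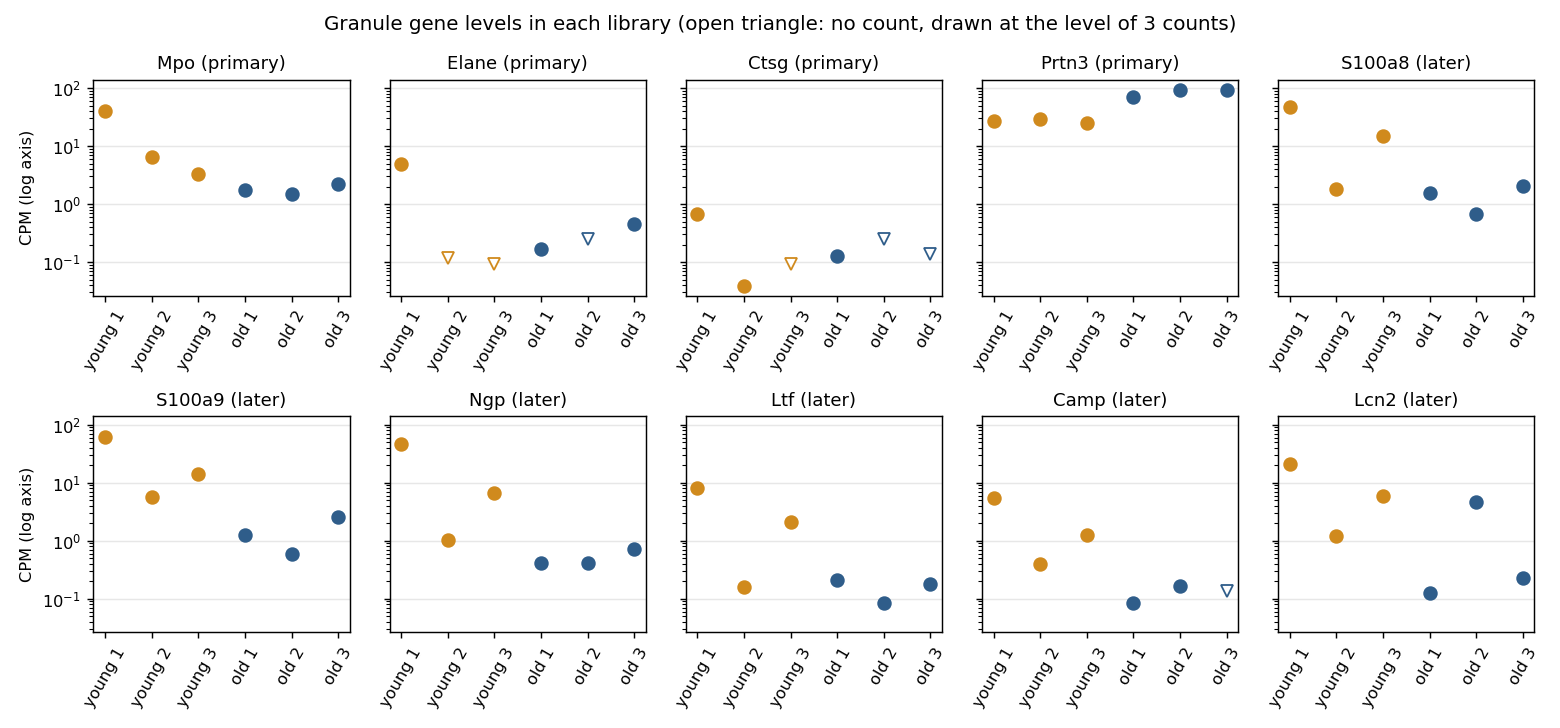
Level of each granule gene in the 6 libraries, in CPM on a log axis, with young libraries in orange and old libraries in blue, and an open triangle at the level of 3 counts where a library had no count. Prtn3 sits at 25.04 to 29.2 CPM in young and 69.5 to 94.5 CPM in old libraries, and every other gene is highest in young 1.

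Prtn3, a serine protease of primary granules on chromosome 10 from 79874476 to 79883174, stood at 27.2, 29.2 and 25.04 CPM in young 1, 2 and 3 and at 69.5, 92.4 and 94.5 CPM in old 1, 2 and 3. All old libraries lay above all young ones, and the young mean was 27.1 ± 2.09 CPM (SD, n = 3). The log2 fold change was 1.65 ± 0.17 SE (adjusted p = 0.000341), and an exact two-sided permutation test gave p = 0.1, the smallest that 20 arrangements of 3 and 3 libraries allow. Prtn3 passed in 15 of 15 alternative analyses, with log2 values from 1.58 to 1.79. It ranked 31st by p-value among the 14288 genes. The annotation lists 6 transcripts of Prtn3, of which 2 are coding, the first of these starting at 79879614. A non-coding transcript starts upstream and overlaps 159 bases of Plppr3 on the opposite strand, and the table counts genes, so these transcripts cannot be told apart.

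Mpo, the haem enzyme that makes hypochlorous acid, lies on chromosome 11 from 87793581 to 87804413. It stood at 40.4, 6.43 and 3.33 CPM in young 1, 2 and 3 and at 1.73, 1.51 and 2.20 CPM in the old libraries. The groups did not overlap, although 80.5% of the summed young CPM came from young 1. Mpo fell by 3.19 ± 0.78 SE on the log2 scale (adjusted p = 0.0442), and without young 1 the log2 value was −1.42 with an adjusted p of 0.202. Mpo was called in 8 of 15 alternatives, and lost its call without any 1 old library as well. The antisense gene Gm11505 overlaps 5361 bases of Mpo, and no source used here says whether counting used the strand.

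Elane, the elastase gene 3.07 kb downstream of Prtn3 (chromosome 10, 79886247 to 79888215), had 102, 0 and 0 counts in young 1, 2 and 3 and 4, 0 and 10 counts in the old libraries. With 3 counts as the limit that a count of 0 allows, Elane could have stood at up to 0.118, 0.0917 and 0.252 CPM in young 2, young 3 and old 2. In young 2 and young 3, Elane was therefore not detected while Prtn3 stood at 29.2 and 25.04 CPM. In the fit without a filter Elane had a log2 value of −2.81 ± 1.83 SE (adjusted p = 0.518), and without young 1 it was 5.38 (adjusted p = 0.293), a value that depends on the prior count because both remaining young libraries had none. Ctsg, the protease cathepsin G on chromosome 14 from 56099881 to 56102574, had 14, 1 and 0 counts in young and 3, 0 and 0 in old libraries. Its pooled level was 3.62-fold higher in young mice with an exact 95% counting interval of 1.03 to 19.5, and its log2 value without a filter was −2.12 ± 1.83 SE (adjusted p = 0.651). The pooled level of Elane was 5.28-fold higher in young mice (interval 3.01 to 10). Intervals and floors cover counting error only, young 1 held 102 of 102 young counts of Elane and 14 of 15 of Ctsg, and the groups overlapped for both genes.

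S100a8 and S100a9 lie 22.6 kb apart on chromosome 3, from 90668978 to 90670035 and from 90692632 to 90695721. S100a9 stood at 62.8, 5.61 and 14 CPM in young 1, 2 and 3 and at 1.27, 0.587 and 2.61 CPM in old libraries. S100a8 stood at 47.9, 1.80 and 15.01 CPM in young and at 1.56, 0.671 and 2.02 CPM in old libraries. The groups were separate for S100a9, whereas S100a8 in young 2 lay below old 3. S100a9 fell 17.7-fold (log2 value −4.14 ± 0.81 SE, adjusted p = 0.0139), and S100a8 fell 14.7-fold (−3.88 ± 0.89, adjusted p = 0.0328). Without young 1 the log2 values were −2.68 (adjusted p = 0.0446) and −2.54 (adjusted p = 0.12). S100a8 lost its call in 8 of 15 alternatives, in each of the fits without young 1, without young 3 and without any 1 old library among others, and S100a9 in 3 of 15, limma-voom and the fits without old 1 or old 2.

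Ngp, Ltf and Camp lie on chromosome 9, with gaps of 570 kb between Camp and Ngp and 596 kb between Ngp and Ltf. Ngp, a cystatin-like protein of specific granules (110419747 to 110423012), stood at 45.8, 1.02 and 6.70 CPM in young 1, 2 and 3 and at 0.422, 0.419 and 0.733 CPM in old libraries. It fell 33.0-fold (log2 value −5.04 ± 1.11 SE, adjusted p = 0.0263), and without young 1 the log2 value was −2.86 (adjusted p = 0.0987). Ngp was called in 9 of 15 alternatives, and lost its call without any 1 old library as well. Young 1 held 85.6% of the summed young CPM of Ngp, and the groups did not overlap.

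Camp, the precursor of the antimicrobial peptide CRAMP (109847379 to 109849617), had 116, 10 and 42 counts in young and 2, 2 and 0 in old libraries. Ltf, the iron-binding protein lactoferrin (111019271 to 111042767), had 173, 4 and 68 counts in young and 5, 1 and 4 in old libraries. Camp did not overlap between the groups, and Ltf did, since young 2 lay at 0.157 CPM and old 1 at 0.211. Without a filter the log2 values were −4.90 ± 1.26 SE for Camp (adjusted p = 0.0664) and −4.33 ± 1.18 for Ltf (adjusted p = 0.082), and neither passed. Both were called lower with DESeq2 (adjusted p = 0.00331 for Camp and 0.00303 for Ltf), in the edgeR exact test (0.00725 and 0.0117) and in the quasi-likelihood fit without young 2 (0.0312 and 0.0107).

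Lcn2, a siderophore-binding lipocalin on chromosome 2 from 32384633 to 32388252, stood at 21.4, 1.22 and 5.93 CPM in young 1, 2 and 3 and at 0.127, 4.70 and 0.229 CPM in old 1, 2 and 3. Old 2 lay within the young range and old 1 and old 3 below it. Lcn2 did not pass (log2 value −2.59 ± 1.19 SE, adjusted p = 0.304), and without old 2 its log2 value was −5.71 (adjusted p = 0.0486). In old 2 S100a8, S100a9, Ngp and Ltf were at their lowest of all 6 libraries. Ngp stood there at 0.419 CPM beside 0.422 in old 1, and Ltf had 1 count. Camp, with 2 counts, had its highest old level in old 2 (0.168 CPM).

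The 6 later genes had the same order in the young libraries, young 1 above young 3 above young 2, an order shown by 17.2% of tested genes. The ratio of young 1 to young 2 ranged from 11.2 for S100a9 to 52.3 for Ltf, and that of young 3 to young 2 from 2.50 for S100a9 to 13.3 for Ltf. Mpo had another order, with young 2 at 6.43 CPM above young 3 at 3.33 CPM. Young 2 is the library whose title and description carry different library numbers, and the title was used to find its column. Without young 2, 6 of 9 tested members were called lower, against 163 of all 14625 genes tested in that fit. They were Mpo, S100a8, S100a9, Ngp, Ltf and Camp, and Prtn3 was still called higher. Young 2 was the lowest young library for all 6 later genes, so leaving it out raised their young means. Ltf and Camp reached the main filter's 0.437 CPM in 2 young and 0 old libraries. This count therefore does not support a shift of the list.

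**Figure D2:**
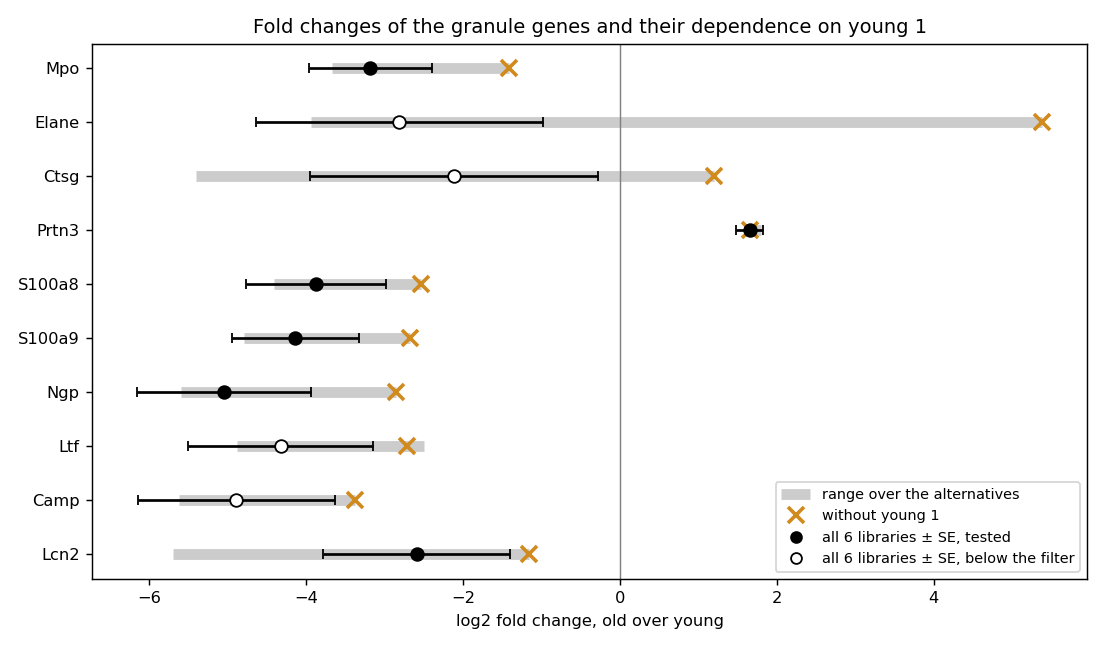
Log2 fold change, old over young, of each gene over all 6 libraries with its SE (filled where tested, open where below the filter), the range over the alternative analyses in grey and the fit without young 1 as a cross. Prtn3 keeps a value near 1.65, while the crosses of the other genes lie to the right of their points.

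Primary granule genes were set against later genes in each library. The 4 primary genes summed to 73.1, 35.7 and 28.4 CPM in young 1, 2 and 3 and to 71.5, 93.9 and 97.2 CPM in old libraries. The 6 later genes summed to 192, 10.2 and 45 CPM in young and to 3.67, 6.63 and 5.77 CPM in old libraries. The log2 ratio of the first sum to the second was −1.39, 1.81 and −0.67 in young and 4.29, 3.82 and 4.07 in old libraries, and so was higher in every old library than in any young one. Its mean was −0.08 ± 1.68 in the young and 4.06 ± 0.23 in the old group (SD, n = 3), a description with no test, since the genes were chosen with results of these data known.

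Both sums moved the ratio. The later sum fell from a mean of 82.3 ± 96.3 to 5.36 ± 1.52 CPM, and the primary sum rose from 45.7 ± 24.0 to 87.5 ± 13.9 CPM (SD, n = 3). The rise of the primary sum rested on Prtn3, which made up 37.2%, 81.9% and 88.3% of it in young 1, 2 and 3 and 97.2% to 98.4% in old libraries. The remaining primary genes Mpo, Elane and Ctsg summed to 45.9, 6.47 and 3.33 CPM in young and to 2.03, 1.51 and 2.66 CPM in old libraries. Their log2 ratio to the later genes was −2.16 ± 1.55 in the young and −1.37 ± 0.67 in the old group (SD, n = 3), and the groups overlapped. Without Prtn3 the difference of the ratio between the ages was 0.79 in place of 4.14. With the mean of log2 CPM in each class in place of the sums it was 2.71.

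**Figure D3:**
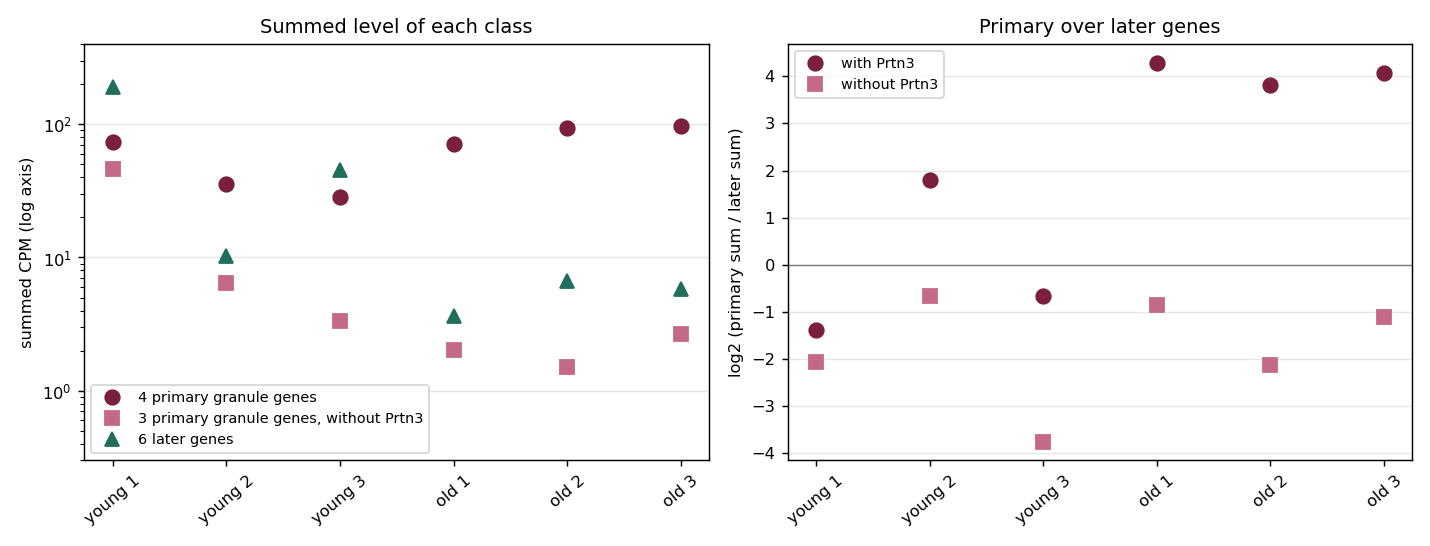
Left, summed CPM of the primary granule genes with and without Prtn3 and of the later genes in each library, on a log axis. Right, the log2 ratio of primary to later sums, which is 3.82 to 4.29 in old libraries with Prtn3 and overlaps between the ages without it.

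To compare genes with each other, CPM were divided by the length of the annotated exons in kilobases. In old mice Prtn3 had the highest level per length, 49.3 ± 7.99 CPM per kb (SD, n = 3), 17.3-fold above S100a9 at 2.85 ± 1.97, and the ranges of these neighbours did not overlap. Below them S100a8, Lcn2, Mpo, Ngp, Elane, Camp, Ltf and Ctsg followed, each overlapping the next. In young mice S100a9 (52.6 ± 59.2 CPM per kb) and S100a8 (31.1 ± 34.2) stood above Prtn3 (15.7 ± 1.21) and Ngp (14.6 ± 19.9) by their means, but every neighbour in the order overlapped in range. Ctsg was lowest in both groups, at 0.227 and 0.0408 CPM per kb.

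The neighbourhood of Prtn3 was then examined, as its position was not used to choose it. Within 100 kb of Prtn3 lay 14 genes of the table, 12 of them tested, and 1 of these was called, against 3.99% of all tested genes. This was Kiss1r, the receptor of kisspeptin, at 0.213 ± 0.0228 CPM in the young and 1.90 ± 0.458 in the old group (SD, n = 3, log2 value 3.12 ± 0.66 SE, adjusted p = 0.0211). Kiss1r lay below the filter's 0.437 CPM in the young group and passed that filter through the old group alone. The count of calls therefore does not support a change of the neighbourhood. Plppr3, which overlaps Prtn3 on the other strand, had a log2 value of 0.47 ± 0.19 SE (adjusted p = 0.235). Prss57, a further serine protease of azurophil granules, had 0.81 ± 0.68 (adjusted p = 0.632), at 1.61 ± 1.39 CPM in the young and 2.79 ± 1.29 in the old group. Ptbp1, Med16, R3hdm4, Wdr18, Arid3a, Tmem259 and Gm26602 had log2 values between −0.11 and 0.27, and Palm and Grin3b had −1.02 (adjusted p = 0.384) and −3.30 (adjusted p = 0.0609).

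**Figure D4:**
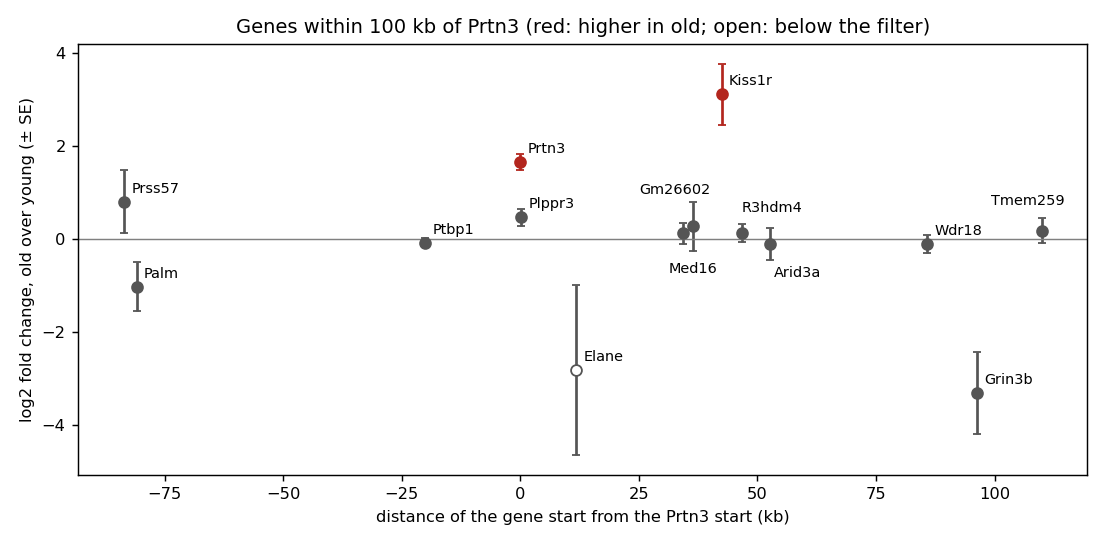
Log2 fold change, old over young, with its SE for the tested genes within 100 kb of Prtn3 and for Elane (open, below the filter), by the distance of their starts from that of Prtn3 in kb. Prtn3 and Kiss1r, in red, were called higher in old mice.

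Near S100a8 and S100a9, the calcium-binding protein gene S100a6 rose, from 10.4 ± 1.13 to 34.4 ± 4.30 CPM (SD, n = 3, log2 value 1.73 ± 0.22 SE, adjusted p = 0.00109). It was the 1 called gene among 8 tested genes of a list of other S100 genes, against 2.45% of all tested genes called higher. The median log2 fold change of that list was 0.54 beside −0.02 over all tested genes. The list also held S100pbp, which encodes a binding protein and no S100 protein (log2 value −0.25).

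Other genes of the granules were taken from lists that do not overlap the members. Calls in these and the following lists stand beside 1.54% of all tested genes called lower and 2.45% called higher. The table held 14 further genes of primary granules, of which 3 of 13 tested rose and 10 were not called, with a median log2 value of 0.39. Ctsc, the dipeptidyl peptidase that activates Elane, Prtn3 and Ctsg, rose from 82.0 ± 7.85 to 125 ± 11.6 CPM (SD, n = 3, 1.52-fold). Cd63, a membrane protein of azurophil granules and lysosomes, rose 1.79-fold. Ctsc and Cd63 kept their calls in 10 of 15 alternatives. Srgn, the proteoglycan that packs granule proteins, was picked after its values were seen and stood at 414 ± 16.8 CPM in the young and 545 ± 59.1 in the old group, without a call.

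Of 28 further later granule genes 19 were in the table and 11 were tested, with 1 lower, 10 not called and a median log2 value of 0.13. Cybb, the haem-binding subunit of the NADPH oxidase, stood at 7.35, 1.45 and 4.03 CPM in young 1, 2 and 3 and at 0.211, 0.168 and 0.0916 CPM in old libraries. It fell 26.4-fold (adjusted p = 0.0062) and was called in 15 of 15 alternatives. Cybb passed the filter on low counts through the young group alone, as no old library reached the filter's 0.437 CPM. Its young libraries had the same order as the later members. Of the 19 further later granule genes 9 were highest in young 1, beside 20.5% of all tested genes. Of the 8 below the filter 5 were highest there, and of the 14 further primary granule genes 2. Chil3, a chitinase-like protein of maturing neutrophils and macrophages that was picked after its values were seen, stood at 27.7, 0.275 and 4.22 CPM in young and at 0.337, 0 and 0.0458 CPM in old libraries. Lyz2, the lysozyme of myeloid cells, was picked likewise and stood at 145 ± 25.3 CPM in the young and 182 ± 14.8 in the old group (SD, n = 3), without a call. Olfm4 and Wfdc21 were at 0 in all old libraries, and Wfdc21 was at least 11.4-fold lower when the old group as a whole is set at 3 counts. Both were also at 0 in young 2 and young 3, so this bound rests on young 1 alone.

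Of 10 tested surface and chemotaxis genes of neutrophils 1 fell, with a median log2 value of −0.20. It was Fcgr3, a low-affinity receptor of IgG, which had no count in old libraries and was at least 51.5-fold lower by the same rule. Fcgr3 passed the filter on low counts through the young group alone. Its young libraries stood at 2.99, 5.06 and 0.642 CPM, an order unlike that of the later members. The receptors Csf3r (68.3 ± 11.4 and 77.4 ± 4.88 CPM in young and old mice) and Cxcr2 (14.6 ± 3.71 and 14.2 ± 0.63), both picked after their values were seen, had no call. Ly6g, a marker of mature neutrophils picked likewise, was at or below 0.284 CPM in all 6 libraries.

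Of 14 transcription factors known to act on granule genes 2 rose and 12 were not called, with a median log2 value of 0.05. Klf4, a zinc finger factor of monocytes, rose from 5.11 ± 1.89 to 39.8 ± 3.94 CPM (SD, n = 3, 7.79-fold), and Cebpd, a C/EBP factor, rose from 1.496 ± 0.714 to 6.91 ± 2.88 CPM (4.57-fold). Klf4 was called in 15 of 15 alternatives and Cebpd in 7 of 15. Of other factors whose motifs were searched above, Spi1 (28.5 ± 2.44 CPM in young and 24.3 ± 5.23 in old mice), Myb (998 ± 163 and 915 ± 114), Cebpa (0.447 ± 0.128 and 0.253 ± 0.232) and Cebpb had no call, and were picked for their motifs after their values were seen. Cebpb stood at 1.80, 2.23 and 1.83 CPM in young and at 6.20, 8.30 and 4.12 CPM in old libraries, with no overlap (log2 value 1.66 ± 0.46 SE, adjusted p = 0.0714). Among 10 tested inhibitors of granule proteases 1 rose, Spint2 (1.85-fold, called in 9 of 15 alternatives). Of 9 tested genes of the NADPH oxidase and of S100 receptors Cybb was the 1 called. Of 9 haem synthesis genes none was called with edgeR, none at an unadjusted p of 0.05 and none with DESeq2.

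Markers of other cells were read beside these results. HSC markers were present in every library, with 12 of 12 tested, a summed level of 3409 to 3996 CPM in young and 3684 to 4073 CPM in old libraries, and 3 of them higher in old mice (Procr, Slamf1 and Pdzk1ip1). Of 16 macrophage markers 15 were tested and 8 fell, against 1.54% of all tested genes. Adgre1, Cd5l, Fcna and C1qb were at 0 in all old libraries. They passed the filter on low counts through the young group alone, so the count of calls does not support a shift of the list. The list summed to 91.7 to 117 CPM in young and 37.6 to 46.3 CPM in old libraries. Young 1 was the lowest young library for this sum, unlike for the later granule genes. Without young 1, 6 macrophage markers fell.

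Erythroid markers did follow young 1. Of 15 listed genes 13 were highest there, 10 were tested and 3 fell (Car1, Ermap and Klf1, the last called in 9 of 15 alternatives), at 853 to 1323 CPM in young and 790 to 957 CPM in old libraries with 1323 in young 1 and Rhd at 0 in all old libraries. Without young 1, 2 erythroid markers fell. Of 14 markers of granulocyte-monocyte progenitors 10 were tested, with Cd34, Fcgr3 and Clec12a lower (Clec12a called in 7 of 15 alternatives) and Ctsc higher. Fcgr3 was at 0 in the old group. The list summed to 457 to 561 CPM in young and 483 to 500 CPM in old libraries. Young 1 had the highest sum, with 305 of its 561 CPM from the marker Calr. Of the 14 genes 5 were highest in young 1, beside 13 of 15 erythroid genes and 20.5% of all tested genes. Ms4a3, a marker of these progenitors picked after its values were seen, was at or below 0.569 CPM in all libraries. The part of macrophage, erythroid and progenitor RNA in the changes of the granule genes was not tested.

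Of 9 tested megakaryocyte markers Cavin2 and Vwf rose, and the list summed to 758 to 899 CPM in young and 1108 to 1237 CPM in old libraries. No marker of eosinophils, basophils and mast cells (5 tested), B cells (4) or T and NK cells (4) was called with edgeR, while 1, 0 and 1 had an unadjusted p under 0.05 and 0, 0 and 1 were called with DESeq2. Without young 1, edgeR called 1 T and NK cell marker lower. The old libraries carry the consecutive numbers 28, 29 and 30 in the labels and the young ones 1, 5 and 24, so age and any step that followed those numbers cannot be told apart.

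**Figure D5:**
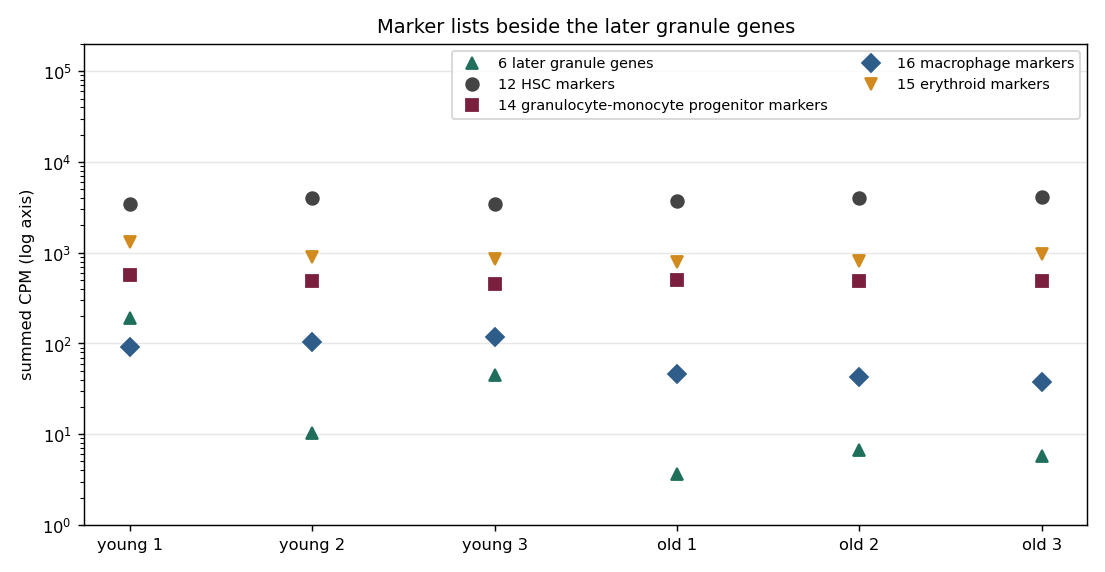
Summed CPM on a log axis of the 6 later granule genes and of the marker lists of HSCs, granulocyte-monocyte progenitors, macrophages and erythroid cells in each library. The later granule genes range from 3.67 to 192 CPM, while HSC markers stay between 3409 and 4073 CPM.

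Genes with the most similar pattern were found as the root mean square difference of centred log2 CPM over the 6 libraries, among 13262 tested genes at 1 CPM or more, a description that rests on 6 points from shared libraries. For S100a9 the nearest were S100a8 (0.63), Ngp (0.69), the glucuronosyltransferase gene Ugt1a6b (0.78), the erythroid factor Klf1 (0.83) and Cybb (0.86). For Mpo they were Paqr9 (0.43), Atp8b4 (0.44), the erythroid membrane gene Rhag (0.51) and Klf1 (0.62). For Prtn3 they were Gda, a guanine deaminase (0.11), Ptger4, a receptor of prostaglandin E2 (0.13), Trim47 (0.13), Myo1e (0.15) and Fam169a (0.15). The log2 values of these 5 ran from 1.43 for Myo1e to 1.82 for Fam169a. Their rise in old mice follows from their choice by likeness to Prtn3 and is no separate result.

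In the authors' deposited table, whose log2 values are young over old, Prtn3 had −1.56 with an adjusted p of 5.33e-15 and ranked 32nd of 15649 genes by adjusted p. In the same authors' deposited table Mpo had 0.80 (adjusted p = 0.0116), S100a8 0.79 (0.0179), S100a9 0.94 (0.0037), Ngp 0.70 (0.00456) and Camp 0.82 (0.00778). Lcn2 and Ltf had 0.32 and 0.27 in the authors' deposited table and did not pass, and Elane and Ctsg had no adjusted p. The authors' deposited table called 2.6% of its genes lower and 3.57% higher in old mice. The signs were the same as in the fit of all 6 libraries for all 10 genes, while the authors' deposited sizes were smaller for every gene, for example 0.80 beside 3.19 for Mpo, and why was not tested.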

How the data were processed

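RNA of flow-sorted HSCs of 3 young and 3 old samples was made into libraries with a low-input kit, per the labels' protocols. Per the submitters' processing notes the tools were FastQC, MultiQC, Salmon and DESeq2 and the build GRCm38, with no version or role. The deposited table holds the authors' estimated counts per gene, in whole numbers. The deposited results table holds the authors' base mean (a normalised signal), log2 fold change, its standard error, a test score, and p-values, made with a method not given in the sources used here. Libraries held 12494557 to 30931680 counts.

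The fit used edgeR 4.0.16 under R 4.3.3 (TMM scaling, default filter with a minimum count of 10 and a total of 15, quasi-likelihood F test, two-sided, Benjamini-Hochberg adjustment, threshold 0.05). Alternatives used limma 3.58.1 and DESeq2 1.42.0, and scipy 1.17.1 gave exact permutation tests. The SE is the log2 fold change over the root of F. Members below the filter come from the same fit without it. Log2 CPM used a prior count of 2. Symbols were matched for 16301 genes, and positions and exon lengths are GENCODE M21 (GRCm38). Replicates were numbered in sample order and pair nothing. The fit was tested on simulated data.

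The members and lists were chosen with earlier results of these data known. Named genes are the members, up to 4 called genes of each list by p, neighbours within 100 kb (for members other than Prtn3 and Elane only the called ones) and the 5 most similar genes at a mean of 1 CPM or more. Exceptions are said to be picked. A few genes that this rule names are not reported here.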

Additional observations from a re-analysis of the deposited data

How the results depend on the processing

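Over 142 alternative values of the 10 genes, 107 kept direction and side of the threshold, 24 lost a call, 7 gained one and 4 changed sign. The sign changes concern Elane (0.96 with limma-voom, 1.42 with limma-voom and quality weights, 5.38 without young replicate 1) and Ctsg (1.19 without young replicate 1), both with few counts. When 1 library was left out, Elane ranged from −3.94 to 5.38 and Ctsg from −5.40 to 1.19. Members called lower numbered 4, but 0 with limma-voom (2 at an unadjusted p under 0.05), 1 with limma-voom and quality weights, and 0 to 6 when 1 library was left out. They numbered 1 without young replicate 1 (S100a9), 1 without old replicate 2 (Lcn2), 1 without old replicate 3 (S100a9) and 0 without old replicate 1 (6 at an unadjusted p under 0.05). The cause was not tested. Changed genes over the whole table numbered 570, with 1100 by DESeq2, 1015 in the edgeR exact test and 245 to 473 when 1 library was left out, the lowest being 322, 345 and 245 without old replicates 1, 2 and 3. The log2 difference of the primary to later ratio, 4.14, was 0.79 without Prtn3, 2.71 with the mean of log2 CPM per class and 3.49 to 5.09 when 1 library was left out. With all 6 libraries Elane, Ctsg, Ltf and Camp have no value under either filter. Without young replicate 2 the filtered fit tested 9 members and called Ltf and Camp lower. No paired analysis was possible because the labels give no shared replicate numbers. Depth limits Elane, Ctsg, Camp and Ltf, with at most 14 counts over the old group.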

Other observations

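Old 2, the library in which Lcn2 stood at 4.70 CPM against 0.127 and 0.229 in the other old libraries, was the highest old library for 36.2% of all tested genes. Among them were 3 other genes of myeloid cells, picked after their values were seen. Clec4e, a receptor of damaged cells and microbial glycolipids, stood at 25.8 CPM there and at 9.11 and 7.56 CPM in old 1 and old 3. Il1r2, the decoy receptor of interleukin-1, stood at 2.60 CPM against 0.38 and 0.733, and Mgst1, a microsomal glutathione transferase, at 12.2 CPM against 3.37 and 3.16. Other genes of the same kind, picked likewise, were lowest of the old libraries in old 2, with Csf3r at 71.9 CPM, Cxcr2 at 13.5 CPM and Fcgr4 at 0. None of these 6 genes was called between the ages, and old 2 had the fewest counts of the 6 libraries, 12494557.

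Of the other S100 genes S100a4 stood at 7.89 ± 3.24 CPM in the young and 18.1 ± 2.26 in the old group (SD, n = 3), picked after its values were seen and without a call (adjusted p = 0.0832).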
